A study of Mus musculus with 6 samples.

Results

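The 7 RNAs described here are structural and nuclear noncoding RNAs, chosen by name from the 45777 genes counted in B16F10 mouse melanoma tumors. They are the 7SL RNA copies Rn7s1 and Rn7s2, the 7SK RNA Rn7sk, the RNase P RNA Rpph1, the RNase MRP RNA Rmrp, and the long nuclear RNAs Malat1 and Neat1. All 7 passed the filter on low counts that left 17210 genes for testing. B16F10 cells are a mouse melanoma cell line, and they were grafted into the hind footpad or the flank skin, with 3 tumors sequenced from each site and 1 library per tumor. According to the labels, all 6 tumors came from Foxn1-/- hosts aged 8 weeks, that is, nude mice without functional T cells. The text of the paper names no host for the sequenced tumors, and no separation of tumor cells from host cells is described beyond their isolation from the implantation sites. Total RNA depleted of ribosomal RNA was sequenced with strand information, and 46529649 to 66364366 reads per tumor were counted on genes. The study describes B16F10 grafts at both sites of a mouse at the same time, for C57BL/6J hosts and also for Foxn1-null hosts. The paper's values of chosen genes in footpad over flank tumors are given with n = 3 mice. Footpad and flank skin tumors sequenced here may therefore share mice, but no label ties a tumor to a mouse. The tumors are labelled as separate samples of a site, and p-values measure the spread between these tumors. The main tests used no pairing by mouse.

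These RNAs are not translated and act as parts of ribonucleoprotein machines. 7SL RNA is the scaffold of the signal recognition particle, which brings ribosomes making secreted and membrane proteins to the endoplasmic reticulum. 7SK RNA holds the kinase P-TEFb in an inactive form and so limits the release of paused RNA polymerase II. Rpph1 is the catalytic RNA of RNase P, which trims the 5′ ends of tRNA precursors, and Rmrp is the related RNA of RNase MRP, which cuts ribosomal RNA precursors. These short RNAs are made by RNA polymerase III. Malat1 and Neat1 are made by RNA polymerase II from neighboring genes. Malat1 gathers in nuclear speckles, the stores of splicing factors, and Neat1 is the architectural RNA of paraspeckles, nuclear bodies that its longer isoform builds.

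The annotated transcripts and their sequences show which reads could be told apart. The 7SL copies lie on chromosome 12, Rn7s1 at 69159295 to 69159594 on the plus strand and Rn7s2 at 69361182 to 69361481 on the minus strand of GRCm38, the build also called mm10. Over their 300 bases the GENCODE M21 transcripts of Rn7s1 and Rn7s2 had 0 different bases. Of the stretches of 50 bases in them, 100% also occur in transcripts of other genes, counting either strand. For each copy these are 11 genes, the other copy among them. The counts of Rn7s1 and Rn7s2 are therefore uncertain as single genes, and their summed counts are given as well. Stretches shared with further genes leave the sum uncertain too.

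Rn7sk lies on the minus strand of chromosome 9 at 78175303 to 78175633. Its first 120 bases are shown because its 5′ hairpin holds repeats of the letters GATC (GAUC in the RNA), which the P-TEFb inhibitor Hexim1 is known to bind. The capitals mark GATC.
Rn7sk, bases 1 to 120: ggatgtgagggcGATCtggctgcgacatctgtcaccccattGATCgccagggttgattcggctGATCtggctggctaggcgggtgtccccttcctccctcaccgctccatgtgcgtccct
GATC occurs 3 times in the RNA, all within these bases. On the sense strand, 61.9% of all transcripts of at least this length hold GATC in their first 331 bases. Of the 50-base stretches of Rn7sk, 68.1% also occur in transcripts of 7 other genes.

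Rpph1 lies on the minus strand of chromosome 14 at 50807449 to 50807767, and Rmrp on the minus strand of chromosome 4 at 43492788 to 43493058. The longest stretches that they share are 9 bases, CAGCGGGGC and GCAGTGCGA, which are in capitals. For Rpph1 only its first 35 bases are shown, since the next 233 bases also lie in an exon of a transcript of Ccnb1ip1 on the same strand.
Rpph1, bases 1 to 35: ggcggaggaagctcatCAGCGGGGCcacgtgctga
Rmrp: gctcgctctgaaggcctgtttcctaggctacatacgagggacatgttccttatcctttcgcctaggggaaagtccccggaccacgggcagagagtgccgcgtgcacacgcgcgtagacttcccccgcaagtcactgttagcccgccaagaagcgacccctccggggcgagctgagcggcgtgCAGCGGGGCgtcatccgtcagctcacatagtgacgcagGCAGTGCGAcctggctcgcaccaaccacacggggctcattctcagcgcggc
On the sense strand, CAGCGGGGC occurs in the first 319 bases of 0.33% of transcripts of at least that length, and GCAGTGCGA in 0.0754%. These stretches were picked because both RNAs hold them, so the shares do not tell how unusual a shared run of 9 bases is. How often other pairs of transcripts share a run of this length was not computed. Ccnb1ip1 was listed with 0 reads in all 6 tumors. An exon of Ccdc107 covers 124 bases of Rmrp on the opposite strand. Whether the counting used strand is not given in the sources used here.

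Between the RefSeq starts of Rpph1 and Parp2 lie 125 bases. Parp2 is a gene for a DNA repair enzyme that is read in the other direction. The interval at chr14:50807772-50807896 is shown on the Rpph1 strand, and the capitals mark the reverse complement of the octamer ATTTGCAT, a promoter element that RNA polymerase III genes of this type often carry.
Rpph1 to Parp2 interval: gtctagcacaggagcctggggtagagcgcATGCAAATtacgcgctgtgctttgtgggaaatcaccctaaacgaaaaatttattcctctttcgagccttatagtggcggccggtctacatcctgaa
The octamer lies on the Parp2 strand, and its far end is 96 bases before the Rpph1 start. Of all promoter windows cut to the same length, 0.606% hold the octamer on either strand. The letters TATAAA and ACTACAA were searched on both strands and are not in this window. They occur in 6.0% and 1.35% of the promoter windows.

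In all tumors the 7 RNAs together took between 5.92% and 10.8% of the counted reads, and the short RNAs took almost all of that. The 5 short RNAs held 6.94% ± 1.28 (SD, n = 3) of the reads in footpad tumors and 8.15% ± 2.18 (n = 3) in flank skin tumors. Malat1 and Neat1 together held 0.115% ± 0.0690 in footpad and 0.139% ± 0.0378 in flank skin tumors. By replicate, the 7 RNAs together held 8.55%, 5.92% and 6.70% of the reads of the footpad tumors 1, 2 and 3. They held 10.8%, 6.74% and 7.34% of the reads of the flank skin tumors 1, 2 and 3. The sites overlapped, and the difference in the mean log2 share was -0.22 (two-sided exact permutation test, p = 0.5, where 0.1 is the smallest p that 3 tumors against 3 allow).

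**Figure D1:**
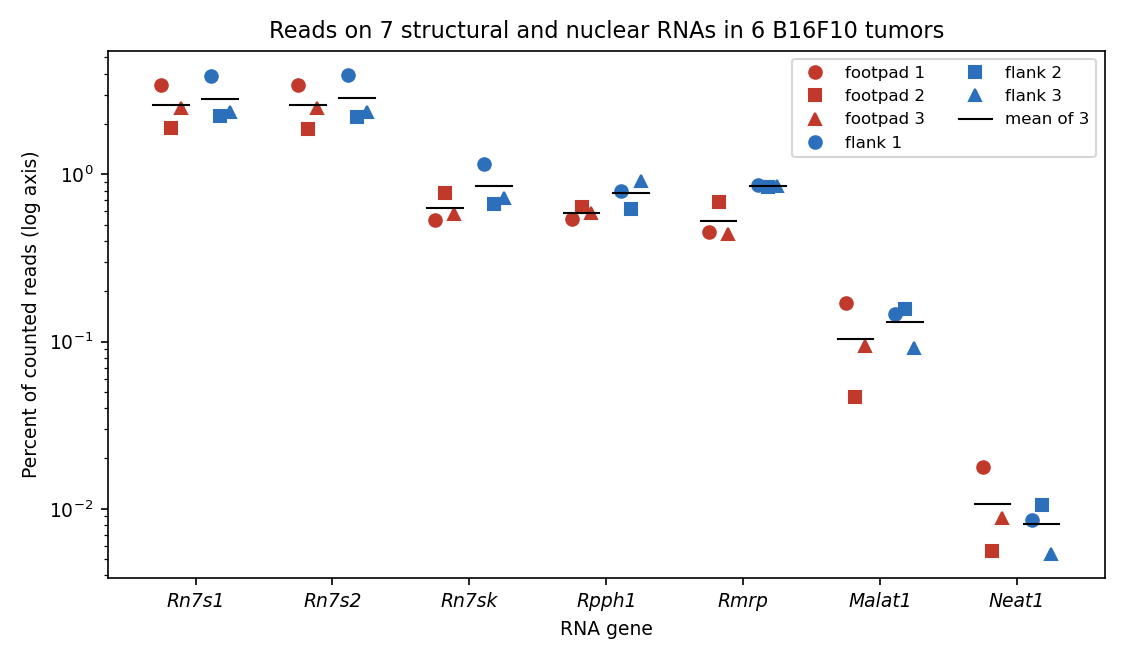
Percent of all counted reads on each of the 7 RNAs (vertical log axis) in the 3 footpad and 3 flank skin tumors, with 1 point per tumor and a line at the mean of 3. The flank skin tumors sit above all footpad tumors for Rmrp, and the sites overlap for the other RNAs.

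Per base of transcript, the deposited FPKM values put the short RNAs at the top of the libraries. The copies Rn7s1 and Rn7s2 held ranks 1 and 2 in every tumor, and Rn7sk, Rpph1 and Rmrp stood between ranks 3 and 8. In footpad tumors the FPKM was 76710 ± 20275 for Rn7s1, 17068 ± 4911 for Rmrp, 16853 ± 3880 for Rn7sk and 16081 ± 1813 for Rpph1 (SD, n = 3 each). Rmrp, Rn7sk and Rpph1 do not differ from each other beyond their spread. In flank skin tumors the FPKM was 84413 ± 26278 for Rn7s1, 27721 ± 60.5 for Rmrp, 22748 ± 6840 for Rn7sk and 21326 ± 4017 for Rpph1. Malat1 followed at 130.3 ± 74.9 in footpad and 168 ± 45.2 in flank skin tumors, between ranks 212 and 1099. Neat1 was lower still, at 10.6 ± 8.25 in footpad and 6.996 ± 4.10 in flank skin tumors, between ranks 2894 and 10149.

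Footpad and flank skin tumors were then compared to ask whether the tumor site changed the level of these RNAs. A gene counted as called when its adjusted p was under 0.05 and it differed at least 2-fold. Of all 17210 genes tested, 3.76% were called, 2.89% as higher and 0.872% as lower in footpad tumors, and 0 of the 7 RNAs were called. At an unadjusted p under 0.05 the count was 1 of the 7 in edgeR, beside 25.3% of all genes, and 2 of the 7 in DESeq2, beside 17.0% of its 28733 genes. The log2 fold change of footpad over flank skin was below 0 for 6 of the 7 and above 0 for Neat1. The 6 hold both 7SL copies, whose counts are uncertain as single genes. The median over all genes tested was -0.004, with 50.3% of genes lower in footpad tumors. All alternative fits also called 0 of the 7, among them DESeq2, which called 5.45% of all its genes. A miss of this threshold does not show that an RNA had the same level at both sites. In bulk tumors, fewer cells of a type and less RNA per cell cannot be told apart.

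**Figure D2:**
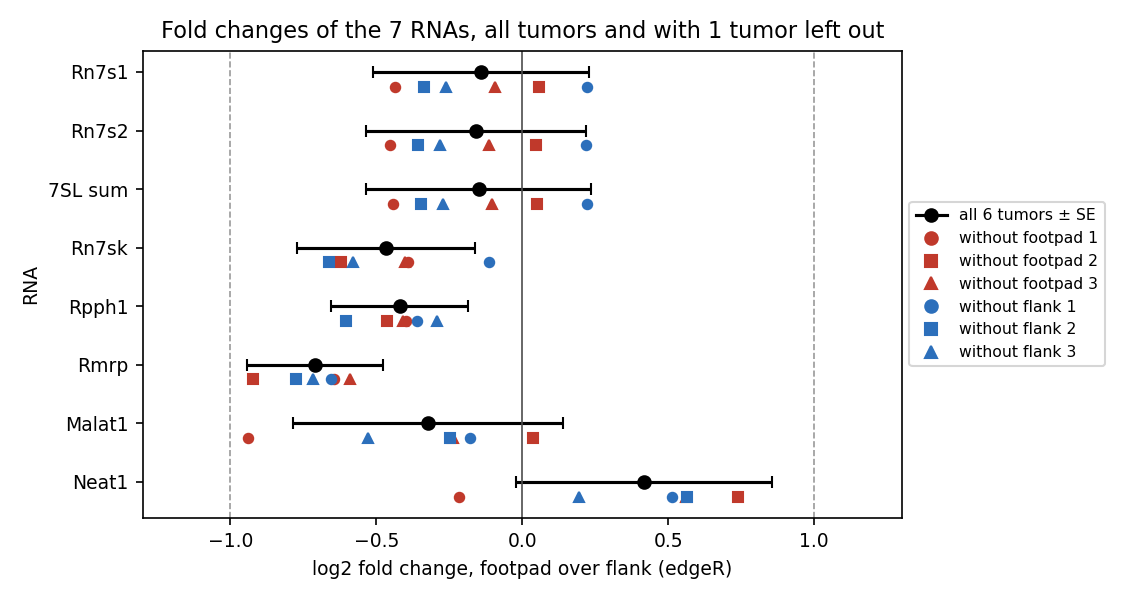
Log2 fold change of footpad over flank skin tumors for each RNA and for the summed 7SL copies (horizontal axis), with black points and bars for the estimate ± SE from all 6 tumors and small colored points for the fits with 1 tumor left out. Dashed lines mark a fold change of 2, and no point lies beyond them.

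The 7SL sum differed more between tumors of a site than between the sites. It took 6.84%, 3.77% and 4.98% of the reads in footpad tumors 1, 2 and 3. For flank skin tumors 1, 2 and 3 the values were 7.83%, 4.45% and 4.75%. The highest tumor of each site was replicate 1, and the ranges of the sites overlapped from 4.45% to 6.84%. The log2 fold change was -0.15 ± 0.39 (SE, adjusted p = 0.841). It became 0.05 without footpad tumor 2 and 0.22 without flank skin tumor 1, so its sign rests on single tumors. Rn7s1 took between 49.6% and 50.5% of the 7SL reads, and its 95% Wilson interval excluded an even split in 4 of 6 tumors. These intervals cover counting error only. The ratio of Rn7s1 to Rn7s2 did not separate the sites (log2 difference 0.01, exact permutation test, p = 0.4). Since the annotated copies have 0 different bases, neither the split nor this ratio tells the levels of the single copies.

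The tumors with the most 7SL reads also had the most reads on mitochondrial and hemoglobin genes. Mitochondrially encoded genes took 9.95%, 0.962% and 4.59% of the reads of footpad tumors 1, 2 and 3, and 2.84%, 1.24% and 0.779% of flank skin tumors 1, 2 and 3. Hemoglobin genes, which mark red blood cells, took 3.39%, 0.399% and 1.77% in footpad tumors and 2.81%, 0.372% and 0.186% in flank skin tumors. Footpad tumors 1 and 3 and flank skin tumor 1 were the highest for 7SL, mitochondrial and hemoglobin reads alike. The part of these genes in the 7SL values was not tested. With these genes and ribosomal RNA left out of the denominator, the log2 difference in the 7SL share was -0.05 (exact permutation test, p = 0.9).

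**Figure D3:**
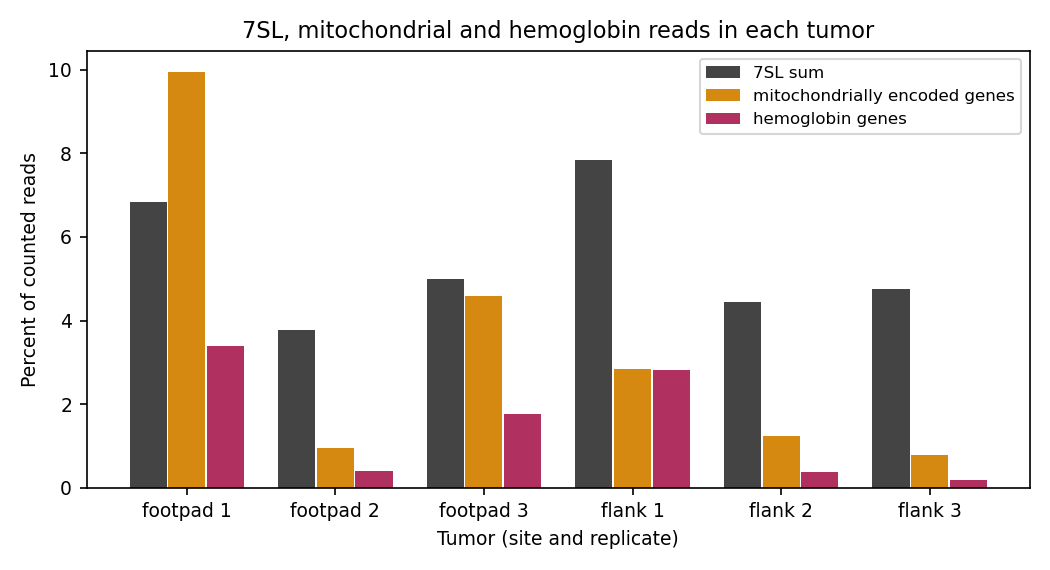
Percent of counted reads on the summed 7SL copies, the mitochondrially encoded genes and the hemoglobin genes (vertical axis, from 0) in each of the 6 tumors. Footpad tumors 1 and 3 and flank skin tumor 1 have the tallest bars in each of the 3 classes.

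The genes for the protein partners of 7SL were not called. The list held 11 symbols for genes of the signal recognition particle and its receptor, and the 10 that were in the counts were all tested. Of these, 4 were higher and 6 lower in footpad tumors. In edgeR 0 were called and 1 had an unadjusted p under 0.05, beside 3.76% and 25.3% of all genes. The median log2 fold change was -0.09. Without overlap between the sites, 1 of the 10 was lower and 1 higher, beside 14.9% and 17.5% of all genes. Srpr, which encodes the α subunit of the receptor that docks the particle at the endoplasmic reticulum, had 156, 156 and 152 CPM (counts scaled to a common library size) in footpad tumors and 89.5, 106 and 104 CPM in flank skin tumors. All footpad tumors were above all flank skin tumors, and the change of 0.63 ± 0.13 on the log2 scale passed the adjusted p (0.0384) but stayed under 2-fold. Without any 1 of the tumors its adjusted p was 0.0583 to 0.142. Among genes for proteins of the particle itself, Srp72 had a log2 fold change of -0.23, Srp9 of 0.27 and Srp68 of 0.22, with adjusted p from 0.386 to 0.407.

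Rn7sk was lower in footpad tumors by its mean, but a single flank skin tumor carried much of the difference. It took 0.534%, 0.775% and 0.580% of the reads of footpad tumors 1, 2 and 3. The flank skin tumors 1, 2 and 3 had 1.15%, 0.664% and 0.725%. Footpad tumor 2 lay above 2 of the flank skin tumors. For Rn7sk the log2 fold change was -0.47 ± 0.31 (SE, adjusted p = 0.379), and it was -0.12 without flank skin tumor 1.

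The ratio of the 7SL sum to Rn7sk was nearly fixed in flank skin tumors and scattered in footpad tumors. It was 6.80, 6.69 and 6.55 in flank skin tumors 1, 2 and 3. In footpad tumors 1, 2 and 3 it was 12.8, 4.86 and 8.59, so footpad values lay on both sides of the flank skin values. The SD of the log2 ratio was 0.70 in footpad and 0.03 in flank skin tumors (n = 3 each), a difference in spread that was noticed in the data and carries no test. The means did not separate (log2 difference 0.28, exact permutation test, p = 0.7).

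All 7 genes of the 7SK particle and P-TEFb were tested, and 4 were higher and 3 lower in footpad tumors. The median log2 fold change was 0.02, edgeR called 0, and 1 had an unadjusted p under 0.05. Over all genes tested, 3.76% were called, 25.3% had an unadjusted p under 0.05 and 50.3% were lower. The lowest of the 7 was Larp7, which encodes the protein that binds the 3′ end of 7SK and keeps it stable. It had 19.5, 22.1 and 25.9 CPM in footpad tumors and 25.3, 37.4 and 36.2 CPM in flank skin tumors, with a log2 fold change of -0.55 ± 0.19 (SE, adjusted p = 0.133). Footpad tumor 3 lay just above flank skin tumor 1. Hexim1, which inhibits P-TEFb when bound to 7SK, had a log2 fold change of 0.17, its relative Hexim2 of -0.25, and the P-TEFb cyclin gene Ccnt2 of -0.22.

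Rmrp was the only member of the 7 whose sites did not overlap, and it was lower in footpad tumors. It took 0.454%, 0.688% and 0.442% of the reads of footpad tumors 1, 2 and 3. In flank skin tumors 1, 2 and 3 it took 0.862%, 0.844% and 0.852%. The flank skin tumors were within 1.02-fold of each other, while footpad tumor 2 stood above the other footpad tumors. The mean footpad share was 0.619 of the mean flank skin share (exact permutation test, two-sided, p = 0.1, which is as low as this design can go). In edgeR the log2 fold change was -0.71 ± 0.23 (SE, unadjusted p = 0.0169, adjusted p = 0.115), which missed the threshold. In DESeq2 the adjusted p was 0.00877 at a fold change under 2, and over all alternatives the adjusted p ranged from 0.00877 to 0.655. Of all genes tested, 32.5% had no overlap between the sites, 14.9% lower and 17.5% higher in footpad tumors, so 1 of 7 RNAs is no more than the background.

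Rpph1 was also lower on average in footpad tumors, with overlap. It took 0.542%, 0.640% and 0.586% of the reads of footpad tumors 1, 2 and 3, and 0.791%, 0.620% and 0.916% of flank skin tumors 1, 2 and 3. Footpad tumor 2 exceeded flank skin tumor 2. In edgeR its log2 fold change was -0.42 ± 0.23 (SE, adjusted p = 0.303). The ratio of Rpph1 to Rmrp, which have most proteins in common, was 1.19, 0.930 and 1.33 in footpad tumors and 0.917, 0.735 and 1.08 in flank skin tumors. These overlapped (log2 difference 0.34, exact permutation test, p = 0.2).

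The genes for proteins of RNase P and RNase MRP were mostly lower in footpad tumors by their estimates. Of 11 genes, 10 were tested, 2 were higher and 8 lower, with 0 called in edgeR and 0 at an unadjusted p under 0.05. The median of the list was -0.08 on the log2 scale. Of all genes tested, 50.3% were lower. Without overlap between the sites, 3 of the 10 were lower and 0 higher, beside 14.9% and 17.5% of all genes. Pop4, which encodes a subunit of both enzymes, had 45.4, 56.9 and 55.7 CPM in footpad tumors and 70.0, 58.9 and 64.1 CPM in flank skin tumors. All footpad tumors were below all flank skin tumors, and the log2 fold change was -0.29 ± 0.14 (SE, adjusted p = 0.247). Rpp30 and Pop7, for further shared subunits, also did not overlap, with log2 fold changes of -0.33 (adjusted p = 0.271) and -0.28 (adjusted p = 0.314). Genes that neighbor or overlap these RNAs, chosen after their values were seen, had log2 fold changes of -0.46 for Parp2 (adjusted p = 0.2) and -0.28 for Ccdc107 (adjusted p = 0.520).

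The listed genes of RNA polymerase III, which makes the short RNAs, and of its factors and regulators showed no common direction. All 28 genes were tested, and 12 were higher and 16 lower in footpad tumors, where 50.3% of all genes were lower. The median log2 fold change was -0.03. In edgeR 0 were called and 3 had an unadjusted p under 0.05, beside 3.76% and 25.3% of all genes. Without overlap between the sites, 2 of the 28 were lower and 2 higher, beside 14.9% and 17.5% of all genes. Ssb encodes the La protein, which binds the U-rich ends of new polymerase III transcripts, and it had 173, 183 and 216 CPM in footpad tumors against 275, 286 and 286 CPM in flank skin tumors. The sites did not overlap, and the log2 fold change of -0.57 ± 0.14 (SE) had an adjusted p of 0.0592. The largest subunit gene Polr3a lay the other way, at 57.7, 49.6 and 56.6 CPM in footpad and 34.0, 46.3 and 42.1 CPM in flank skin tumors. Its log2 fold change was 0.42 ± 0.15 (SE, adjusted p = 0.142). Polr3d, another subunit gene, had a log2 fold change of 0.30 (adjusted p = 0.193), and Gtf3c3, which encodes a part of the promoter-binding factor TFIIIC, of -0.29 (adjusted p = 0.206).

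**Figure D4:**
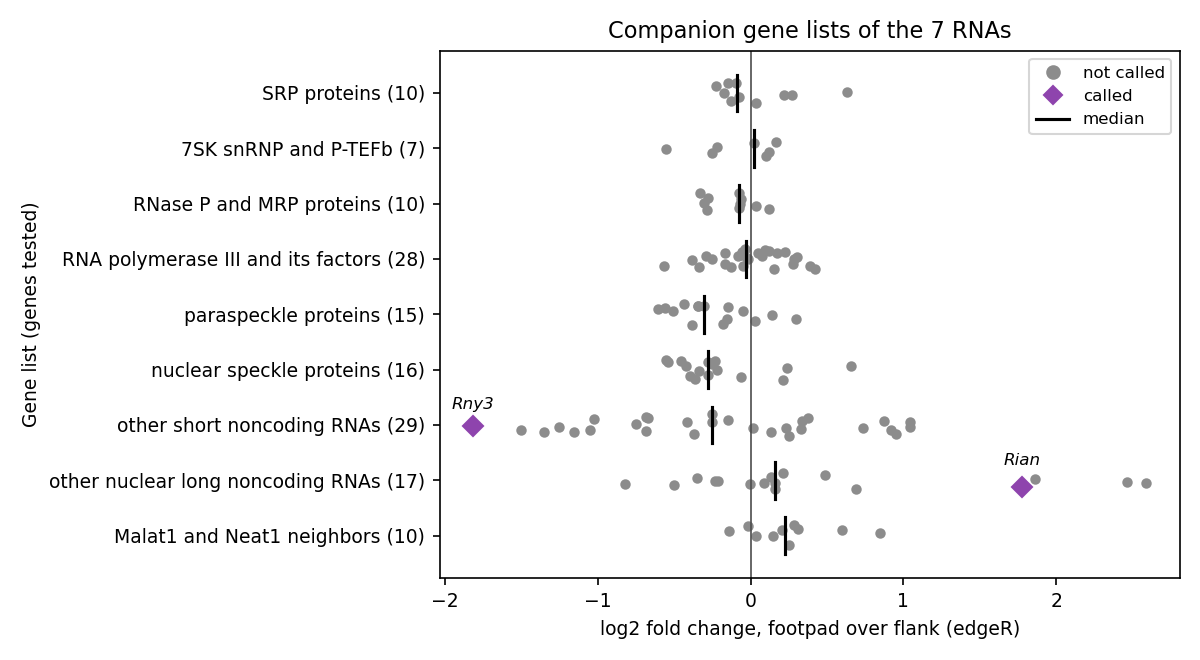
Log2 fold change of footpad over flank skin tumors (horizontal axis) for each tested gene of the 9 companion lists, with gray points for genes not called, purple diamonds for the called genes and black lines at the medians. Rny3 at -1.81 and Rian at 1.78 are the genes called in edgeR.

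Malat1 lies on the minus strand of chromosome 19 at 5795690 to 5802672, and Neat1 on the same strand at 5824708 to 5845478. Malat1 varied widely among footpad tumors, where it took 0.171%, 0.0467% and 0.0943% of the reads of tumors 1, 2 and 3. In flank skin tumors 1, 2 and 3 it took 0.146%, 0.157% and 0.0911%. The footpad values spanned 3.66-fold and enclosed all flank skin values. The log2 fold change was -0.32 ± 0.46 (SE, adjusted p = 0.697), with values from -0.94 to 0.04 when a tumor was left out. Footpad tumor 1 gave the lowest and footpad tumor 2 the highest of these when left out.

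Neat1 followed the same order of footpad tumors at a lower share. It took 0.0178%, 0.00561% and 0.00881% of the reads of footpad tumors 1, 2 and 3. In flank skin tumors 1, 2 and 3 it took 0.00858%, 0.0105% and 0.00538%. Footpad tumor 1 stood above all others, and the sites otherwise overlapped. The log2 fold change was 0.42 ± 0.44 (SE, adjusted p = 0.586), and it was -0.22 without footpad tumor 1.

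The ratio of Malat1 to Neat1 separated the sites although neither RNA did. In counts it was 9.58, 8.32 and 10.7 in footpad tumors 1, 2 and 3. Flank skin tumors 1, 2 and 3 had ratios of 17.0, 14.9 and 16.9. All footpad tumors lay below all flank skin tumors, with a log2 difference of -0.78 and SDs of 0.18 in footpad and 0.11 in flank skin tumors (n = 3 each, exact permutation test, two-sided, p = 0.1, which is as low as this design can go). This ratio is taken within a library, so that scaling between libraries does not enter it. With 1 tumor left out it stayed between -0.87 and -0.68. Single genes without overlap between the sites made up 32.5% of all genes tested. The share among ratios of other gene pairs was not computed, so how unusual this separation is for a ratio was not tested. The ratios compared for other pairs of these RNAs overlapped between the sites.

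In the deposited FPKM values the ratio of Malat1 to Neat1 overlapped between the sites. It was 10.99, 23.2 and 12.1 in footpad tumors and 16.1, 33.2 and 34.3 in flank skin tumors (log2 difference -0.86, exact permutation test, p = 0.2). The files list 1 transcript for Malat1 and 2 for Neat1. For the other 6 RNAs, counts and FPKM were tied by their RefSeq gene length to the same depth in each tumor, within 0.00182%. For Neat1 the length that ties its counts to its FPKM was 8006, 19486 and 7856 bases in footpad tumors and 6606, 15509 and 14132 bases in flank skin tumors. That length overlapped between the sites (log2 difference -0.08, exact permutation test, p = 1.0), and FPKM comparisons of Neat1 move with it.

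**Figure D5:**
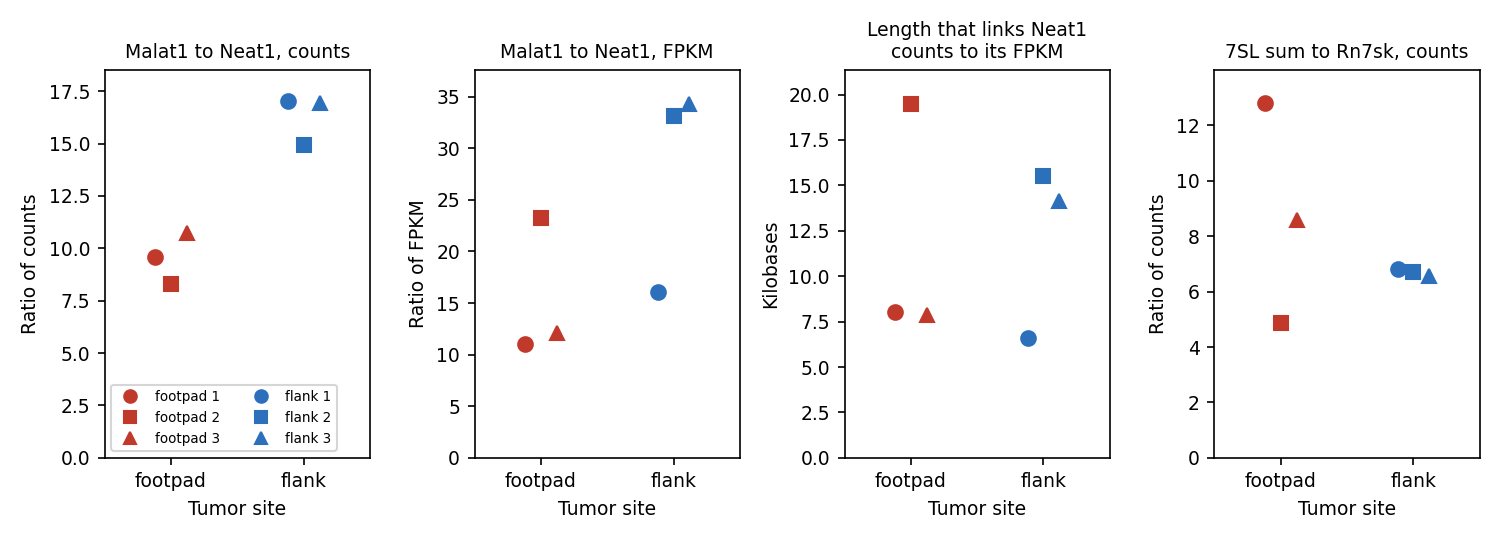
Ratio of Malat1 to Neat1 in counts and in FPKM, the length in kilobases that ties the counts of Neat1 to its FPKM, and the ratio of the 7SL sum to Rn7sk in counts (vertical axes, from 0), with 1 point per tumor for footpad and flank skin tumors. The count ratio of Malat1 to Neat1 lies between 8.32 and 10.7 in footpad and between 14.9 and 17.0 in flank skin tumors, and the other panels overlap.

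Summed markers of fibroblasts, macrophages and endothelial cells were higher in all footpad tumors than in all flank skin tumors. The summed CPM of 8 fibroblast markers was 2751 to 3754 in footpad and 94.9 to 429 in flank skin tumors, with 8 of 8 higher on average in footpad tumors. For 7 macrophage markers it was 110.7 to 136 in footpad and 23.4 to 94.2 in flank skin tumors, with 7 of 7 higher, and for 5 endothelial markers 107 to 171 and 57.4 to 77.0, with 5 of 5 higher. Neutrophil, keratinocyte and skeletal muscle markers overlapped between the sites. Footpad tumor 2, without which the 7SL and Malat1 fold changes changed sign, stood apart in keratinocyte and skeletal muscle markers, with 513 CPM of keratinocyte markers against 1.55 to 26.3 CPM in the other tumors, and 487 CPM of skeletal muscle markers against 3.75 to 55.3 CPM. The part of these markers in its values of the 7 RNAs was not tested. None of these lists had a marker at 0 in all tumors. The 7 melanoma markers summed to 9797 to 17934 CPM in footpad and 14343 to 24928 CPM in flank skin tumors, with overlap, and 1 of 7 was higher and 6 lower on average in footpad tumors. All 7 were detected. The part of host cells in the values of Rmrp and of the Malat1 to Neat1 ratio was not tested.

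The 3′ end of Malat1 is cut off by RNase P, the enzyme that holds Rpph1, which releases a tRNA-like RNA named Mascrna. It is shown for the capitals, which mark a match to GGTTCNANNCC, the B box of tRNA genes. It lies at chr19:5795924-5795981 on the minus strand.
Mascrna: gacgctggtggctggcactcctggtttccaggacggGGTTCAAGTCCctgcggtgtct
On the sense strand, 0.0501% of transcripts of at least 58 bases hold the B box in their first 58 bases. The files list Mascrna with a count of 1 in each of the 6 tumors, beside FPKM values of 4e-06 to 1.6e-05. A count of 1 is under the limit of 3 reads taken for detection, so no comparison was made.

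The genes for proteins of the bodies in which Malat1 and Neat1 gather were mostly lower in footpad tumors by their estimates, with 0 called in edgeR and 0 in DESeq2. Of 15 paraspeckle genes, all tested, 3 were higher and 12 lower, with 4 at an unadjusted p under 0.05 and a median log2 fold change of -0.30. Of all genes tested, 50.3% were lower and 25.3% had an unadjusted p under 0.05. Without overlap between the sites, 6 of the 15 were lower and 1 higher, beside 14.9% and 17.5% of all genes. The genes named next have the smallest p of the list. Nono encodes a core paraspeckle protein bound to Neat1 and had 190, 205 and 232 CPM in footpad tumors and 260, 292 and 338 CPM in flank skin tumors. Its sites did not overlap, and the log2 fold change was -0.51 ± 0.16 (SE, adjusted p = 0.1003). Nudt21 encodes a subunit of a factor that chooses polyadenylation sites. It had 48.4, 64.0 and 59.1 CPM in footpad and 78.1, 80.5 and 103 CPM in flank skin tumors, with a log2 fold change of -0.61 (adjusted p = 0.0763). Tardbp and Hnrnpk, which encode RNA-binding proteins, also had no overlap, at -0.44 (adjusted p = 0.0819) and -0.39 (adjusted p = 0.185).

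All 16 nuclear speckle genes were tested, and 3 were higher and 13 lower in footpad tumors, with 5 at an unadjusted p under 0.05. The median log2 fold change was -0.28, beside the -0.004 of all genes. Of all genes, 25.3% had an unadjusted p under 0.05. Without overlap between the sites, 5 of the 16 were lower and 0 higher, beside 14.9% and 17.5% of all genes. The genes named next have the smallest p of the list. Srsf7, Srsf3, Srsf2 and Srsf1 encode splicing factors of the SR family. Srsf7 had 71.2, 73.0 and 81.7 CPM in footpad tumors and 96.0, 116 and 117 CPM in flank skin tumors, with a log2 fold change of -0.54 ± 0.14 (SE, adjusted p = 0.0631). Srsf3 and Srsf2 did not overlap either, at -0.42 (adjusted p = 0.134) and -0.45 (adjusted p = 0.149). Srsf1 was at -0.55 (adjusted p = 0.158), with footpad tumor 3 above flank skin tumor 1. The 3 higher genes had log2 fold changes of 0.65 for Srrm2 (adjusted p = 0.187), 0.24 for Son (adjusted p = 0.365) and 0.21 for Srrm1 (adjusted p = 0.459). Their sites overlapped, and Srrm2 had the largest change of the list in either direction. The adjusted p missed the threshold in all of these.

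For the neighbors of Malat1 and Neat1 on chromosome 19, 13 symbols were listed, 11 were in the counts and 10 were tested. Of the 10, 8 were higher and 2 lower in footpad tumors, where 50.3% of all genes were lower. The median log2 fold change was 0.23. In edgeR 0 were called and 2 had an unadjusted p under 0.05, beside 3.76% and 25.3% of all genes. Ltbp3, which encodes a protein that binds latent TGF-β in the matrix, had 62.7, 36.0 and 41.6 CPM in footpad tumors and 26.5, 28.8 and 22.6 CPM in flank skin tumors. Its sites did not overlap, and the log2 fold change was 0.85 ± 0.22 (SE, adjusted p = 0.0695). Ehbp1l1, Dpf2 and Frmd8 had log2 fold changes of 0.60, 0.28 and 0.21, with adjusted p from 0.126 to 0.339. Without overlap between the sites, 3 of the 10 were higher and 0 lower, beside 17.5% and 14.9% of all genes.

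Among other noncoding RNAs 2 genes were called in edgeR. Rny3 is a Y RNA, a short polymerase III transcript bound by the Ro60 protein, and it fell in footpad tumors. It had 0.426, 0.379 and 0.286 CPM in footpad tumors and 1.33, 1.21 and 1.31 CPM in flank skin tumors. The sites were well apart at a low level, with a log2 fold change of -1.81 ± 0.37 (SE, adjusted p = 0.0395). Without any 1 of the tumors its adjusted p was 0.0626 to 0.154. Of 29 other short noncoding RNAs tested, of 38 listed, 13 were higher and 16 lower in footpad tumors, with 1 called and a median of -0.25. Of these, 9 had an unadjusted p under 0.05, beside 25.3% of all genes. Without overlap between the sites, 10 of the 29 were lower and 0 higher, beside 14.9% and 17.5% of all genes. The RNAs named next have the smallest p of the list after Rny3. The U12 spliceosomal RNA Rnu12 had a log2 fold change of -1.16 (adjusted p = 0.0551) and the box H/ACA RNA Snora74a of -1.05 (adjusted p = 0.0670). The telomerase RNA Terc was at -1.02 (adjusted p = 0.0863) and the Cajal body RNA Scarna6 at -0.75 (adjusted p = 0.0736). These RNAs did not overlap between the sites and missed the threshold in edgeR. DESeq2 called Rnu12 (adjusted p = 0.00208), Snora74a (adjusted p = 0.00323) and Terc (adjusted p = 0.0242), and also the listed Rnu2-10. It called 5.45% of all its genes, and Scarna6 stayed under 2-fold there.

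Rian, a long RNA of the imprinted Dlk1-Dio3 region, rose in footpad tumors. It had 3.21, 6.25 and 3.61 CPM in footpad tumors and 1.41, 1.23 and 1.17 CPM in flank skin tumors, without overlap. Its log2 fold change was 1.78 ± 0.35 (SE, adjusted p = 0.0363), and the adjusted p was 0.0519 to 0.128 without any 1 of the tumors. Of 17 other nuclear long noncoding RNAs tested, of 20 listed, 11 were higher and 6 lower in footpad tumors, with 1 called and a median of 0.16. Without overlap between the sites, 3 of the 17 were higher and 1 lower, beside 17.5% and 14.9% of all genes. Meg3, from the same imprinted region, had 2.80, 0.452 and 1.27 CPM in footpad tumors and 0.259, 0.342 and 0.144 CPM in flank skin tumors, with a log2 fold change of 2.59 ± 0.72 (SE, adjusted p = 0.0783). Xist, the RNA that silences the inactive X chromosome in female cells, was at 1.86 (adjusted p = 0.0837), with 16.7 to 52.5 CPM in footpad and 5.43 to 16.3 CPM in flank skin tumors. In all, 159 companion symbols were listed, 153 were in the counts and 142 were tested. Of the 142, edgeR called 2, which is 1.41% beside the 3.76% of all genes.

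The genes whose levels followed each RNA most closely were taken from 9473 genes with a mean of at least 10 CPM, by Pearson's r of log2 CPM over the 6 tumors, which share depth and composition of their libraries. For the 7SL sum they were Abtb1, Kdm5b and Herpud2 (r = 0.991, 0.985 and 0.978). For Rn7sk they were Ndfip1, Ndufv3 and Ubb (r from 0.991 to 0.993), and for Rmrp Iqcb1, Asb3 and Rsrc1 (r from 0.993 to 0.997). For Rpph1 they were the ribosomal protein pseudogene Rpl10-ps3 and the ribosomal protein genes Rps27a and Rps28 (r from 0.988 to 0.990). For Malat1 they were LOC115488051, Gm10825 and the RNA export gene Nxf1 (r from 0.984 to 0.990), and for Neat1 Tab2, Gigyf1 and Phf21a (r from 0.979 to 0.986). With 6 tumors and this many genes, values of this size are a description.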

How the data were processed

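RNA of 3 footpad and 3 flank skin tumors was analysed, grouped by the sample labels. The authors trimmed reads with Trimmomatic, checked them with FastQC 0.11.7 and aligned them with HISAT2 2.1.0 to mm10, per the paper's methods and the labels. The deposited counts are whole numbers per RefSeq gene without normalization, and the deposited FPKM values were scaled by the authors for length and depth. The counting program and its handling of reads that match several genes are not given in the sources used here. In genes with 1 listed transcript, 46.5% to 55.5% of counts of 1 stood beside an FPKM equal to under 0.5 reads, so low counts may be rounded estimates.

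Counts were tested with edgeR 4.0.16 (R 4.3.3), using TMM scaling, filterByExpr, the quasi-likelihood test and Benjamini-Hochberg adjustment over all genes tested. Standard errors were taken as the fold change divided by the square root of F. CPM are counts over TMM-scaled library size. Shares and ratios were compared with two-sided exact permutation tests of mean log2 values. Sequences came from GENCODE M21 and RefSeq tables of GRCm38, in which 7 of 7 RNAs matched by symbol, and the 7SL sequence is not reported here. Alternatives were DESeq2 1.42.0, limma 3.58.1 on log2(FPKM + 1) and log2(FPKM + 0.1), other scalings, filters and denominators, a replicate block and leaving out each tumor. A limma fit with a mean-variance trend was added after seeing the data. The fits were tested on simulated data. Depth was 46529649 to 66364366 reads, and libraries of a site differed by a chi-square of 58.6 to 511 per gene, so no pair agreed within sampling noise.

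The 7 RNAs and all lists were chosen with earlier results of these data known. Named companion genes are those called and up to 4 with the smallest p in each list. Python 3.11.15 was used for tables and figures.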

Additional observations from a re-analysis of the deposited data

How the results depend on the processing

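All 16 alternatives called 0 of the 7 RNAs, and the signs of their fold changes changed only when a tumor was left out. Without footpad replicate 2 the log2 fold change became 0.06 for Rn7s1, 0.05 for Rn7s2 and the 7SL sum, and 0.037 for Malat1. Without flank replicate 1 it became 0.22 for Rn7s1, Rn7s2 and the 7SL sum, and without footpad replicate 1 it became -0.22 for Neat1. The cause was not tested. The leave-one-out ranges were -0.43 to 0.22 for Rn7s1, -0.45 to 0.22 for Rn7s2, -0.44 to 0.22 for the 7SL sum, -0.94 to 0.04 for Malat1 and -0.22 to 0.74 for Neat1. The adjusted p of Rmrp ranged from 0.00877 in DESeq2 to 0.655 over all alternatives. The log2 difference in the 7SL share ranged from -0.34 to 0.13 and that in the long to short ratio from -0.53 to 0.14 without a tumor.

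The count of all genes called was 647, and it was 1567 in DESeq2, 248 in limma on log2(FPKM + 1), 366 with a mean-variance trend, 0 with the replicate block and 0 to 836 without a tumor (31 without footpad replicate 1, 0 without footpad replicate 3, 308 without flank replicate 1 and 46 without flank replicate 3). The count of companion genes called was 2, and it was 7 in DESeq2, 1 with no filter on low counts, 6 in limma on log2(FPKM + 0.1), 5 with the trend, 0 with the replicate block and 0 to 3 without a tumor, with 0 without footpad replicate 1 or 3 or flank replicate 1 or 3. The 7 called in DESeq2 were Rian, Rny3, Meg3, Rnu12, Rnu2-10, Snora74a and Terc, of 152 companion genes with a value there. Srpr missed an adjusted p under 0.05 with total count only (adjusted p = 0.0747), with no filter (0.0568) and in limma (0.0850 to 0.124). Rny3 missed the threshold with no filter (adjusted p = 0.0585), and Rian in limma on log2(FPKM + 1), where its log2 fold change was 0.65 (adjusted p = 0.103). The replicate block rests on shared numbers alone, since no label ties tumors to mice. Deviations of same-numbered tumors from their site means correlated at 0.128, -0.157 and -0.0865. With 3 tumors per site, whose deviations sum to 0, these values can neither show nor exclude shared mice. The main tests used no block since the paper's methods describe none. Under the block the adjusted p was 0.130 for Rny3, 0.113 for Rian and 0.123 for Srpr. With 0 genes called under it, 3551 had an unadjusted p under 0.05. With 0 called without footpad replicate 3, 3289 had one.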

Other observations

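The small nucleolar U3 RNA copies Rnu3a and Rnu3b1 to Rnu3b4, which guide the first cuts of ribosomal RNA and whose near-identical copies could share reads, were singled out after their values were seen. Rnu3b1 had 251, 17.4 and 79.0 CPM in footpad tumors 1, 2 and 3 and 57.8, 74.3 and 51.4 CPM in flank skin tumors 1, 2 and 3. Footpad tumor 1 was the highest and footpad tumor 2 the lowest of the 6 tumors, and the same held for the U1 copy Rnu1a1 at 42.7 and 4.10 CPM. Malat1 had its highest and lowest CPM in the same tumors, at 1785 and 451 CPM, and so did the mitochondrial ribosomal RNAs among footpad tumors, at 4.12% and 0.332% of the reads. None of the U3 copies passed the test between the sites, with log2 fold changes in edgeR from 0.25 for Rnu3a (adjusted p = 0.846) to 1.04 for Rnu3b4 (adjusted p = 0.432).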
